A study of Drosophila melanogaster with 48 samples.

Results

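The brains of SP0-mated females were compared 1 day after very mild head trauma (D3Inj) and after sham treatment. SP0-mated females are females whose mates made no sex peptide. The 6 libraries, 3 of D3Inj and 3 of sham females, were chosen by the name in the header of the count column, out of 48 libraries in the series. The headers of the injured libraries call them young, which was read as D3Inj, the injury of this experiment. Every library held whole-number counts for 23932 features, genes and transposon insertions, and 14631 of these passed the filter on low counts for the 24 libraries of day 4.

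The series covers males and virgin, wildtype-mated and SP0-mated females, each with D3Inj and sham libraries on day 4 and day 45, in 16 groups of 3. D3Inj SP0-mated females received a single session of headfirst impacts on day 3 after eclosion and their brains were taken on day 4. Sham SP0-mated females of the same age were placed in the same vials without impacts. Both groups carried the genotype that the labels call WT, which the methods give as progeny of nSyb-GAL4 males and w1118 females, so all flies carried a pan-neuronal driver. Their mates carried an SP null mutation over a deficiency of the SP gene. Each library pooled the brains of 40 flies of an independent cohort, so the 3 libraries of a group measure the spread between pools and not between flies.

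Sex peptide is a peptide of the seminal fluid that mated females receive from males. It acts through the sex peptide receptor SPR on sensory neurons, makes females lay eggs and refuse further matings, and also alters feeding, sleep and immune gene expression. The innate immune response of flies runs through the Imd and Toll pathways, whose NF-kB factors, Relish for Imd and Dif and Dorsal for Toll, switch on antimicrobial peptide genes. The fat body, hemocytes, glia and the gut all can make such peptides. After injury to the nervous system, the Toll-receptor adaptor Sarm drives the loss of cut axons, and glia clear debris through the engulfment receptor Draper.

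Counts summed to 25549959, 37284677 and 39792046 in D3Inj SP0-mated females and to 30816805, 36696557 and 35065370 in sham SP0-mated females, within the range of 21495740 to 60637359 over the 48 libraries. In 47 of the 48 count tables the header names another sample than the deposit record does, so the sex in the labels was checked with roX1, an RNA of male dosage compensation. On day 4 it stood at 5275 CPM (counts scaled to a common normalized library size) or more in 6 libraries and at 23.7 CPM or less in the other 18. The headers call all 6 of these libraries male, whereas the record calls 0 of them male and 6 female, among them 2 as SP0-mated. This check covers sex alone, and whether the female libraries were injured or how they were mated was not tested. Grouped by the record, CG43693, the only feature called below, had a log2 fold change of 0.16 (SE 0.13) and was not called. By the headers, the SP0-mated groups of the record mix sexes, treatments and days. This value therefore does not test the effect of D3Inj. The pan-neuronal marker nSyb, at 1622 to 1733 CPM, and the glial marker repo, at 148 to 165 CPM, were present in all 6 libraries. Libraries of the same group were not all alike. The chi-square of the counts of sham 2 against sham 3 was 3.90 per degree of freedom, the lowest of the 24 pairs of libraries within a group on day 4. Sham 1 differed from them with 15.0 and 17.1. These values were near the median of the 24 pairs, 15.0, where the highest was 58.3. Sham 1 and D3Inj 1, from different groups, differed by only 5.35. D3Inj 3 differed from D3Inj 1 and 2 with 12.1 and 11.0 and from sham 1 with 20.6, whereas sham 2 and 3 differed from the D3Inj libraries with 7.78 to 10.6. No pair came down to the value of 1 that sampling noise gives when the same library is sequenced again. All 6 were counted as separate libraries. Whether sham 2 and 3 came from the same pool or from related flies was not tested, because such libraries could also differ by more than 1. Of the 14631 features, 1209 (8.26%) were higher in both of sham 2 and 3 than in all other 4 libraries and 1238 were lower. Because these libraries make up 2 of the 3 sham libraries, the values of the main lists are also given without them.

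A single feature, CG43693, differed between D3Inj and sham SP0-mated females (edgeR quasi-likelihood test, Benjamini-Hochberg adjusted p under 0.05), that is 0.00683% of the features tested. At an unadjusted p under 0.05 there were 304 features higher after D3Inj (2.08%) and 309 lower (2.11%), together 613 of 14631 (4.19%). The 3 D3Inj libraries lay entirely above the 3 sham libraries for 695 features (4.75%) and entirely below them for 658 (4.5%). The median log2 fold change over all features was 0.

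CG43693 is a protein-coding gene on chromosome 3L of dm6 (11036358 to 11051371, minus strand), which lncRNA:CR45119 overlaps on the opposite strand. The strand setting of the counting is not given in the sources used here, so reads of this and of other antisense pairs cannot be told apart. CG43693 stood at 109, 111 and 106 CPM in the D3Inj libraries, against 128, 132 and 132 CPM in the sham libraries. The groups did not overlap, and sham library 1 lay with sham 2 and 3. CG43693 fell to 108.6 ± 2.47 CPM after D3Inj, against 130.5 ± 2.57 CPM in sham SP0-mated females (SD, n = 3 each), a log2 difference of -0.27 with an SE of 0.04 (edgeR, adjusted p = 0.0389). In the other 18 libraries of day 4 the lowest level of CG43693 was 115.6 CPM, so the D3Inj SP0-mated libraries were below every one of them. The call was lost when any 1 of the 6 libraries was left out, with adjusted p from 0.0918 to 0.613 in edgeR and log2 fold changes from -0.28 to -0.25. DESeq2 on the same 24 libraries gave CG43693 an adjusted p of 7.78e-05 and called 2 features in all, and DESeq2 on the 6 libraries alone called it at 0.00143, among 13.

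**Figure D1:**
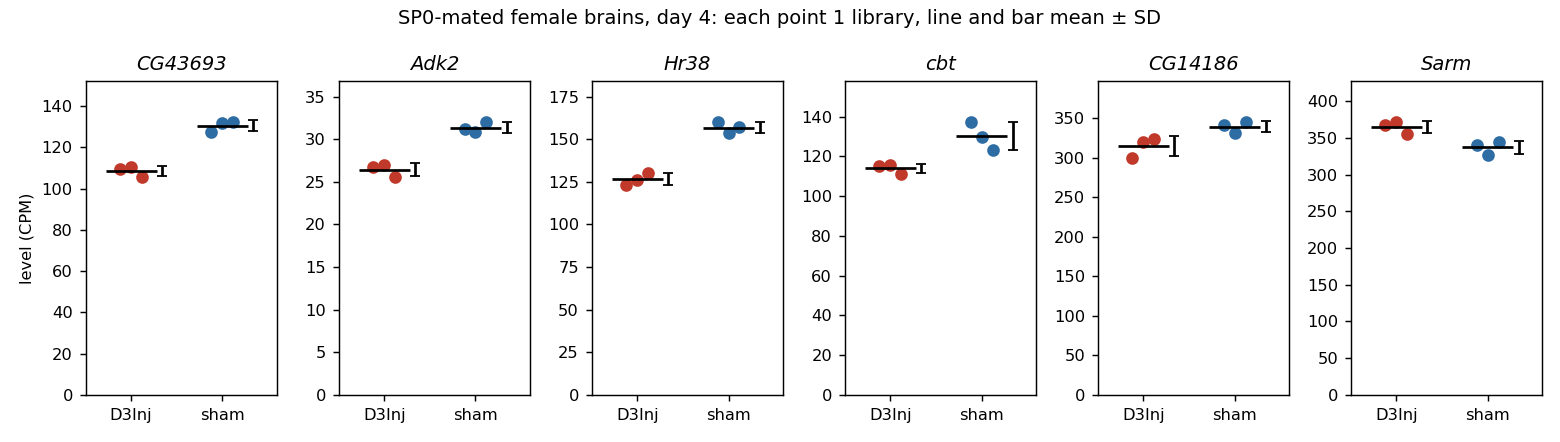
Levels in CPM (vertical axes, starting at 0) of 6 named genes in the 3 D3Inj libraries (left, red) and the 3 sham libraries (right, blue) of SP0-mated females on day 4; each point is a library, the line is the mean and the bar the SD. The groups do not overlap for any of the 6 genes, with CG43693 at 106 to 111 CPM after D3Inj and 128 to 132 CPM in sham, but CG43693 alone passed the test.

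Where the mean reached 1 log2 CPM and the 3 D3Inj libraries all lay below the 3 sham libraries, the 12 features with the smallest p were examined. Apart from CG43693, none of them passed the adjusted test. Adk2, which encodes an adenosine kinase, had 26.8, 27.0 and 25.5 CPM after D3Inj, against 31.2, 30.9 and 32.0 CPM in sham (log2 fold change -0.25, SE 0.06). As for CG43693, sham library 1 was as high as the other sham libraries, and without sham 2 and 3 the log2 fold change was -0.24. The gene aay encodes phosphoserine phosphatase, the last step of serine synthesis. It stood at 57.1, 59.4 and 54.5 CPM after D3Inj, against 62.2, 79.2 and 71.3 CPM in sham (log2 fold change -0.32, SE 0.08). CG1640, a predicted alanine aminotransferase, had 279, 281 and 277 CPM after D3Inj, against 291, 317 and 307 CPM in sham (log2 fold change -0.13, SE 0.03). For aay and CG1640 sham 1 was the lowest sham library, and without sham 2 and 3 the log2 fold changes were -0.13 and -0.07. Bcat, the aminotransferase of branched-chain amino acids, rested on sham 2 and 3 to a greater degree. It had 3.39, 4.31 and 5.06 CPM after D3Inj, against 5.75, 13.3 and 15.4 CPM in sham (log2 fold change -1.43, SE 0.39), and -0.43 without sham 2 and 3.

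ND-ASHI, a subunit of mitochondrial complex I, had 50.8, 49.0 and 44.2 CPM after D3Inj, against 56.2, 51.1 and 57.8 CPM in sham (log2 fold change -0.20, SE 0.06). The ABC transporter gene st (scarlet), which carries precursors of eye pigment, had 1.93, 1.72 and 1.71 CPM after D3Inj, against 2.51, 3.57 and 2.83 CPM in sham (log2 fold change -0.74, SE 0.21). The groups lay close to each other for ND-ASHI, where D3Inj 1 and sham 2 were less than 1 CPM apart. The gene udd, a factor of RNA polymerase I transcription, had 6.29, 7.56 and 6.50 CPM after D3Inj, against 8.99, 8.99 and 8.47 CPM in sham (log2 fold change -0.38, SE 0.11). Sham 1 was as high as the other sham libraries for udd, and without sham 2 and 3 the log2 fold change was -0.41. The cohesion gene dmt (dalmatian) and the genes CG8206 and CG10874 had log2 fold changes of -0.36, -0.28 and -0.28, and dmt -0.23 without sham 2 and 3. CG10874 is overlapped by an antisense RNA.

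Genes that neuronal activity switches on were examined as a list of 13, all tested, of which 7 had a negative and 6 a positive log2 fold change (median -0.01, against 0 over all features). The 3 members Hr38, cbt and CG14186 had D3Inj libraries entirely below the sham libraries, beside 4.5% of all features, and 0 had them entirely above. Of the 13, cbt alone had an unadjusted p under 0.05, beside 2.11% of all features with D3Inj lower. Hr38 encodes a nuclear receptor of the NR4A family that is used as a marker of recent neuronal firing. It stood at 123, 126 and 130 CPM after D3Inj, against 160, 153 and 157 CPM in sham. The gap between the groups was several times the spread within them, at means of 126.6 ± 3.69 and 156.9 ± 3.39 CPM (SD, n = 3 each). In the fit over 24 libraries the log2 fold change of -0.31 had an SE of 0.20 and was not called, in a fit that takes the spread of a gene from all 8 groups of day 4. In edgeR on the 6 libraries alone it was called (SE 0.05, adjusted p = 0.0415). The antisense RNA lncRNA:CR44188, which lies within Hr38 on the opposite strand (chromosome 2L of dm6, 20711202 to 20712300), had 20.1, 19.2 and 16.9 CPM after D3Inj, against 47.6, 26.6 and 25.8 CPM in sham. It was lower after D3Inj without overlap (log2 fold change -0.83, SE 0.41), and sham 1 was the highest library. As the strand setting is not known, Hr38 and this RNA may not be separate measurements. The gene cbt (cabut), a zinc finger transcription factor, had 115, 116 and 111 CPM after D3Inj, against 137, 130 and 123 CPM in sham (log2 fold change -0.19, SE 0.06). CG14186 had 299.7, 319.6 and 324 CPM after D3Inj, against 341, 332 and 345 CPM in sham (log2 fold change -0.11, SE 0.07). Other members of the list did not separate the groups. The egr family factor sr (stripe) had 142, 141 and 125 CPM after D3Inj, against 108, 139 and 144 CPM in sham, and the AP-1 gene kay (Fos) had 159, 159 and 153 CPM after D3Inj, against 155, 157 and 158 CPM in sham.

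Under the same limits on level and overlap, none of the 12 features with the smallest p among those higher after D3Inj passed the adjusted test. Smu1, a splicing factor, had 18.9, 22.4 and 18.6 CPM after D3Inj, against 17.1, 16.6 and 16.5 CPM in sham (log2 fold change 0.26, SE 0.08). Nup50, a nuclear pore protein, had 17.1, 18.2 and 15.7 CPM after D3Inj, against 14.0, 13.6 and 14.8 CPM in sham (log2 fold change 0.26, SE 0.08). Without sham 2 and 3 both stayed positive, at 0.22 and 0.28. The checkpoint gene mus304, the fly partner of the ATR kinase, had 6.60, 7.11 and 5.95 CPM after D3Inj, against 5.49, 4.98 and 4.84 CPM in sham (log2 fold change 0.36, SE 0.12). The titin-like muscle gene zormin had 109, 112 and 106 CPM after D3Inj, against 97.1, 90.9 and 96.4 CPM in sham (log2 fold change 0.20, SE 0.06). The D3Inj libraries of both genes lay above all sham libraries, sham 1 included. Gpo2, a mitochondrial glycerophosphate oxidase gene and 1 of the 5 largest rises under these limits, had 2.43, 3.01 and 2.39 CPM after D3Inj, against 0.996, 1.90 and 1.84 CPM in sham (log2 fold change 0.72, SE 0.25), and a log2 fold change of 1.39 without sham 2 and 3.

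CG42562, of unknown function, had 2.93, 3.01 and 3.35 CPM after D3Inj, against 2.25, 1.46 and 1.59 CPM in sham (log2 fold change 0.82, SE 0.21), and a log2 fold change of 0.46 without sham 2 and 3. HPS4 overlaps it on the same strand, so the counting may have split reads of the pair. CG34348 and the noncoding RNAs lncRNA:CR45224 and lncRNA:CR44395 had log2 fold changes of 0.30, 0.61 and 0.45, and CG34348 0.16 without sham 2 and 3. In this set were 3 insertions of the non-LTR retrotransposon Doc and 1 of INE-1, and copies of a transposon share sequence, so reads may have been split among them. Doc{}350 had 7.91, 7.50 and 6.80 CPM after D3Inj, against 5.30, 6.36 and 5.44 CPM in sham (log2 fold change 0.37, SE 0.09). Doc{}1652, Doc{}776 and INE-1{}2615 had log2 fold changes of 0.49, 0.33 and 0.41.

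Antimicrobial peptide genes were low in all 3 D3Inj libraries and in sham library 1, and high in sham libraries 2 and 3. Of 18 listed genes, 13 passed the filter, and 12 of these had a negative log2 fold change, 10 with an unadjusted p under 0.05, beside 2.11% of all features on that side. The list was chosen with earlier results of these data known, so counts for it describe the libraries and are not an independent test. The median of the 13 was -3.90, against 0 over all features. Of the 13, 11 were higher in both of sham 2 and 3 than in the other 4 libraries, beside 8.26% of all features. None passed the adjusted test over the 24 libraries, and DESeq2 on the 6 libraries alone called DptA (adjusted p = 3.3e-05). Their CPM summed to 9.14, 8.14 and 8.74 after D3Inj, against 8.00, 80.4 and 83.4 in sham. Sham 1 thus lay below every D3Inj library, and the other 18 libraries of day 4 ran from 5.70 to 123, with a median of 7.47. Without sham 2 and 3 the median log2 fold change was 0.09, with 7 genes positive and 6 negative.

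AttC, an attacin that acts on Gram-negative bacteria, had 0.733, 0.317 and 0.882 CPM after D3Inj, against 0.353, 19.0 and 18.9 CPM in sham (log2 fold change -4.31, SE 1.37). AttB had 0.347, 0.344 and 0.202 CPM after D3Inj, against 0.385, 6.66 and 6.91 CPM in sham (log2 fold change -3.98, SE 1.10). AttA and AttB are near-identical copies, so reads may have been split between them. For AttC the groups overlapped, and for AttB sham 1 was just above the highest D3Inj library. DptA, a diptericin and a standard readout of Imd, had 0.0386, 0.0264 and 0 CPM after D3Inj, against 0.0642, 3.87 and 4.16 CPM in sham (log2 fold change -6.89, SE 2.28). Dro, the gene of drosocin, had 0.424, 0.132 and 0.932 CPM after D3Inj, against 0.161, 11.0 and 11.5 CPM in sham. For each of these genes sham 1 was at a level near that of the D3Inj libraries. The peptides under Toll or mixed control had smaller gaps. Mtk, metchnikowin, had 1.31, 1.27 and 1.03 CPM after D3Inj, against 1.12, 6.96 and 7.73 CPM in sham, and Drs, drosomycin, had 3.55, 2.48 and 2.72 CPM after D3Inj, against 2.89, 9.53 and 9.46 CPM in sham. The cecropin genes CecA1 and CecA2, another near-identical pair, were at 0.101 CPM or less in every library but sham 2 and 3. Def (log2 fold change -0.56, SE 0.63) and edin (log2 fold change 0.25, SE 0.40) did not separate sham 2 and 3 from the rest.

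**Figure D2:**
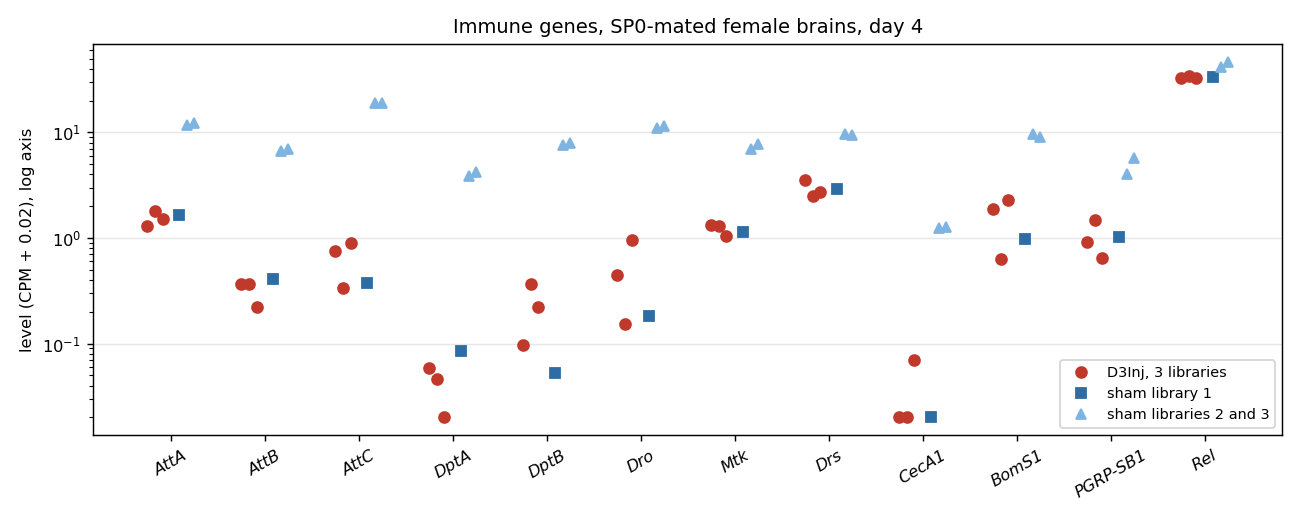
Levels of 12 immune genes (CPM + 0.02, log axis) in SP0-mated females on day 4, each symbol 1 library: red circles are the 3 D3Inj libraries, the dark square is sham library 1 and the light triangles are sham libraries 2 and 3. In each gene except Rel the triangles stand far above the other 4 symbols, as for AttC at 19.0 and 18.9 CPM against 0.882 CPM or less.

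The effectors induced by Toll followed the same split between libraries. Of 16 Bomanin, Daisho and related genes, 15 had a negative log2 fold change (median -0.87). Of the 16, 13 were higher in both of sham 2 and 3 than in the other 4 libraries, beside 8.26% of all features. An unadjusted p under 0.05 with D3Inj lower was found for 1 of the 16, beside 2.11% of all features. Their CPM summed to 69.1, 59.7 and 68.5 after D3Inj, against 57.7, 148 and 144 in sham, and without sham 2 and 3 the median was 0.25. BomS1 had 1.85, 0.608 and 2.24 CPM after D3Inj, against 0.964, 9.53 and 8.92 CPM in sham (log2 fold change -2.06, SE 0.99). Turandot genes encode stress peptides that JAK/STAT signaling raises. TotM had 0.887, 0.529 and 0.756 CPM after D3Inj, against 0.610, 4.90 and 4.36 CPM in sham (log2 fold change -2.20, SE 0.96), while TotA had 10.7, 10.5 and 5.47 CPM after D3Inj, against 7.52, 12.6 and 12.2 CPM in sham (log2 fold change -0.29, SE 0.57).

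Upstream of the effectors, 23 of 28 genes of Imd and Toll signaling had a negative log2 fold change, with a median of -0.09, and 4 had an unadjusted p under 0.05 with D3Inj lower, beside 2.11% of all features. Without sham 2 and 3, 19 were negative and the median was -0.04. Rel, the gene of Relish, had 32.8, 34.5 and 32.5 CPM after D3Inj, against 33.3, 41.6 and 46.6 CPM in sham (log2 fold change -0.29, SE 0.10). Sham 1 lay within the D3Inj libraries, and Nmdmc overlaps Rel on the same strand. The recognition gene PGRP-SB1 had 0.887, 1.45 and 0.630 CPM after D3Inj, against 0.996, 3.98 and 5.64 CPM in sham (log2 fold change -1.84, SE 0.69). PGRP-SD, a sensor of peptidoglycan, had 0.733, 0.925 and 1.13 CPM after D3Inj, against 1.12, 1.92 and 1.98 CPM in sham (log2 fold change -0.84, SE 0.38). Dredd, the caspase that cleaves Relish, differed from these in that sham 1 was its highest library. It had 6.40, 6.42 and 6.02 CPM after D3Inj, against 8.06, 7.69 and 7.25 CPM in sham (log2 fold change -0.29, SE 0.12), and -0.36 without sham 2 and 3.

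Photoreceptor genes were also high in sham 2 and 3. Brain libraries can hold retina that was not removed in dissection, and in bulk RNA fewer cells of a type and less RNA per cell cannot be told apart. Of 40 phototransduction genes 39 were tested, 30 had a negative log2 fold change, 13 with an unadjusted p under 0.05, and 0 had an unadjusted p under 0.05 with D3Inj higher, beside 2.11% and 2.08% of all features. The median was -0.20, and 0.0019 without sham 2 and 3, when 20 were positive and 19 negative. Sham 2 and 3 were above the other 4 libraries for 22 of the 39, beside 8.26% of all features. The major rhodopsin gene ninaE had 44.1, 44.9 and 24.2 CPM after D3Inj, against 31.1, 245 and 241 CPM in sham (log2 fold change -2.20, SE 0.82). The rhodopsin gene Rh3 of inner photoreceptors had 1.20, 1.19 and 0.983 CPM after D3Inj, against 1.06, 5.71 and 6.12 CPM in sham (log2 fold change -1.95, SE 0.63). The rhodopsins Rh4 and Rh6 had log2 fold changes of -1.67 and -1.14. In ninaE and Rh3 sham 1 lay within the range of the D3Inj libraries. The calcium channel gene trp had 20.7, 23.5 and 14.5 CPM after D3Inj, against 16.6, 52.1 and 54.3 CPM in sham (log2 fold change -1.07, SE 0.50), and trpl had 26.7, 22.9 and 15.4 CPM after D3Inj, against 21.5, 51.0 and 51.2 CPM in sham (log2 fold change -0.94, SE 0.44). Among the photoreceptor genes, chp (chaoptin, a surface protein of photoreceptors) had 12.4, 16.2 and 11.5 CPM after D3Inj, against 12.01, 33.9 and 36.8 CPM in sham. Cpn (calphotin) and Culd (a protein of rhodopsin turnover) kept the groups apart, with sham 1 just above the D3Inj libraries. Cpn had 3.36, 3.86 and 2.67 CPM after D3Inj, against 4.05, 8.61 and 8.01 CPM in sham (log2 fold change -1.07), and Culd had 8.87, 8.48 and 7.71 CPM after D3Inj, against 9.99, 12.9 and 15.9 CPM in sham (log2 fold change -0.64).

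Enzymes of purine synthesis and one-carbon metabolism gave the same picture at smaller size. Of 25 listed genes 24 were tested, and 23 of the 24 had a negative log2 fold change (median -0.12), 2 with an unadjusted p under 0.05, beside 2.11% of all features. Gnmt, glycine N-methyltransferase, had 0.154, 0.317 and 0.655 CPM after D3Inj, against 0.128, 3.17 and 3.60 CPM in sham (log2 fold change -2.55, SE 0.98). Pfas, an enzyme of de novo purine synthesis, had 10.4, 12.6 and 11.0 CPM after D3Inj, against 11.3, 17.2 and 20.4 CPM in sham (log2 fold change -0.53, SE 0.22). Both had sham 1 within the range of the D3Inj libraries or below it. Further steps of the pathway showed the same order of libraries: Paics had 32.5, 34.3 and 28.6 CPM after D3Inj, against 31.1, 42.6 and 44.9 CPM in sham (log2 fold change -0.32, SE 0.21), and Gart had 23.4, 22.7 and 20.4 CPM after D3Inj, against 20.3, 30.5 and 29.6 CPM in sham (log2 fold change -0.28, SE 0.20). Prat2, which begins the pathway, had sham 1 above the D3Inj libraries, at 7.95, 9.51 and 7.10 CPM after D3Inj, against 10.7, 13.8 and 14.5 CPM in sham (log2 fold change -0.66, SE 0.43). Adss had 57.8, 57.6 and 58.0 CPM after D3Inj, against 58.5, 64.7 and 64.8 CPM in sham (log2 fold change -0.12, SE 0.06), and CG11089 a log2 fold change of -0.31. Without sham 2 and 3 the median of the 24 genes was -0.01, with 11 positive and 13 negative. Sham 2 and 3 were above the other 4 libraries for 11 of the 24, beside 8.26% of all features. Sums over the lists of lipid synthesis and fat body genes were also highest in these pools. Lipid synthesis genes summed to 3859, 3949 and 3940 CPM after D3Inj, against 3635, 4251 and 4310 CPM in sham, with 10 of 25 genes above the other 4 libraries in both of sham 2 and 3. Fat body genes summed to 7807, 7865 and 6430 CPM after D3Inj, against 7444, 8113 and 8215 CPM in sham, with 7 of 23 such genes, beside 8.26% of all features. The part of retina, fat body or other tissue left on those brains in these values was not tested.

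**Figure D3:**
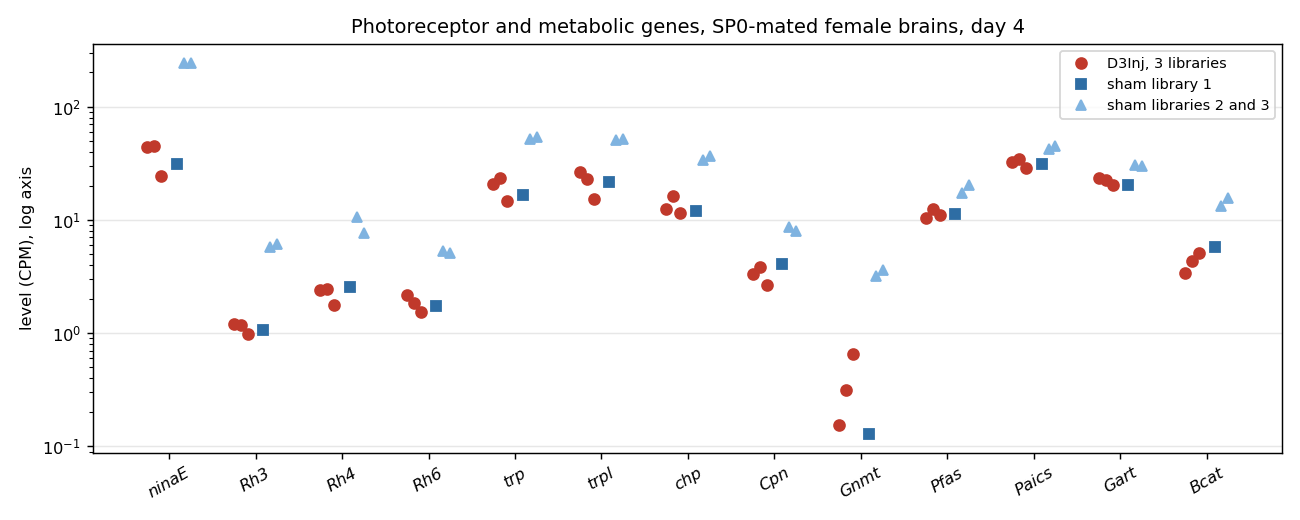
Levels (CPM, log axis) of 8 photoreceptor genes (ninaE to Cpn) and 5 metabolic genes (Gnmt to Bcat) in SP0-mated females on day 4, each symbol 1 library: red circles are D3Inj, the dark square is sham library 1 and the light triangles are sham libraries 2 and 3. The triangles are the top symbols in all 13 genes, and the square lies with the circles or just above them, as for ninaE at 31.1 CPM in sham 1 and 24.2 to 44.9 CPM after D3Inj.

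Among genes of the peritrophic matrix and mucins, 6 of 11 tested had a positive and 4 a negative log2 fold change (median 0.06), and 0 had an unadjusted p under 0.05. A few members were higher after D3Inj and carried the sum of the list. The 17 listed genes summed to 87.3, 91.6 and 44.2 CPM after D3Inj, against 21.8, 25.9 and 27.0 CPM in sham. All D3Inj libraries were above all sham libraries, and D3Inj 3 was lower than D3Inj 1 and 2. Of the 11 tested genes 3, CG34220, Muc68D and CG34324, had D3Inj libraries entirely above sham, beside 4.75% of all features. CG34220 had 52.8, 55.6 and 33.1 CPM after D3Inj, against 15.3, 17.4 and 20.4 CPM in sham (log2 fold change 1.41, SE 1.91). The mucin gene Muc68D had 18.3, 17.9 and 2.97 CPM after D3Inj, against 0.482, 1.33 and 1.08 CPM in sham (log2 fold change 3.70, SE 3.10). CG34324 had 10.2, 11.4 and 3.75 CPM after D3Inj, against 0.899, 1.08 and 1.30 CPM in sham (log2 fold change 2.92, SE 3.11). CG34220 and CG34324 overlap other genes, oys on the same and Neto on the opposite strand. The fit takes its SE from all 8 groups, and in the other 18 libraries of day 4 the list summed to 19.6 to 15421 CPM. In edgeR on the 6 libraries alone, CG34220, CG34324 and Muc68D were called with D3Inj higher, at adjusted p of 0.00589, 0.00632 and 0.0415. The summed level of digestive proteases and amylases of the gut did not rise with them. Of the 17 gut genes tested, 8 were positive and 8 negative, and 0 had an unadjusted p under 0.05 in edgeR. DESeq2 on the 24 libraries called 1 listed gut gene, alphaTry, with D3Inj higher. The 32 listed gut genes summed to 7.91, 8.17 and 6.88 CPM after D3Inj, against 8.35, 9.80 and 8.58 CPM in sham. All D3Inj sums lay below all sham sums, and other libraries of day 4 reached 947 CPM.

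Muscle genes, markers of tissue that can remain on dissected brains, were positive for 16 of 17 genes tested, with a median of 0.40. Of the 17, 1 had an unadjusted p under 0.05, beside 2.08% of all features with D3Inj higher. Without sham 2 and 3, which leaves sham 1 as the only sham library, the median was 0.88, with 15 genes positive. They summed to 350, 357 and 312 CPM after D3Inj, against 277, 319 and 326 CPM in sham, so the groups overlapped and sham 1 was the lowest. The giant sarcomere gene bt (projectin) had 49.0, 48.9 and 35.7 CPM after D3Inj, against 26.5, 35.6 and 36.4 CPM in sham (log2 fold change 0.44, SE 0.18). Mhc, the muscle myosin heavy chain, had 15.8, 19.0 and 9.98 CPM after D3Inj, against 5.59, 13.3 and 12.9 CPM in sham (log2 fold change 0.48, SE 0.45). D3Inj 1 and 2 were the highest libraries for both, and D3Inj 3 lay within the sham libraries. The hormone gene Akh of the corpora cardiaca, a gland beside the brain, was chosen after its values were seen. It had 6.37, 7.45 and 1.97 CPM after D3Inj, against 0.193, 4.71 and 4.96 CPM in sham, lowest in sham 1. The part of such neighboring tissue in the results was not tested.

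**Figure D4:**
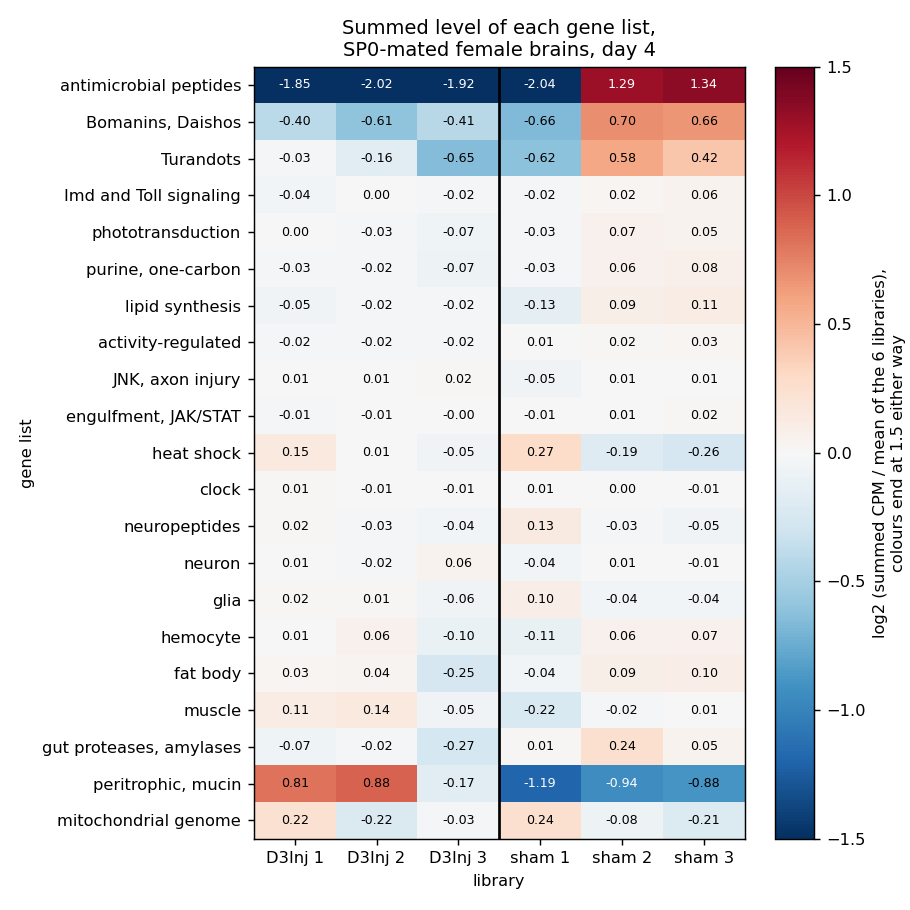
Summed CPM of the members of 21 gene lists (rows) in the 3 D3Inj and 3 sham libraries of SP0-mated females on day 4 (columns), as log2 of the ratio to the mean of the 6 libraries, with the value printed in each cell. Antimicrobial peptides at 1.29 and 1.34 and Bomanins at 0.70 and 0.66 mark sham 2 and 3, peritrophic genes at 0.81 and 0.88 mark D3Inj 1 and 2, and neuron, clock and engulfment lists lie near 0 in all 6 libraries.

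Genes tied to nerve injury differed little. Sarm had 367, 372 and 355 CPM after D3Inj, against 340, 327 and 344 CPM in sham (log2 fold change 0.11, SE 0.05), without overlap, and 0.10 without sham 2 and 3. Among 19 genes of JNK signaling and axon injury it was the 1 with an unadjusted p under 0.05, beside 4.19% of all features. Of the 19, 2 had D3Inj libraries entirely above sham, beside 4.75% of all features. In this list 8 were positive and 11 negative (median -0.02). The JNK target puc had 80.2, 76.5 and 78.9 CPM after D3Inj, against 76.6, 82.5 and 88.4 CPM in sham (log2 fold change -0.07, SE 0.06). Of 17 genes of engulfment and JAK/STAT 15 were tested and 0 had an unadjusted p under 0.05. The gene drpr of the receptor Draper had 183, 182 and 185 CPM after D3Inj, against 178, 197 and 195 CPM in sham (log2 fold change -0.05, SE 0.04). Socs36E, a target of JAK/STAT, had 94.7, 95.1 and 104 CPM after D3Inj, against 98.6, 97.6 and 109 CPM in sham (log2 fold change -0.06, SE 0.06). The laminin gene LanA had 134, 143 and 134 CPM after D3Inj, against 124, 135 and 140 CPM in sham (log2 fold change 0.04, SE 0.08). These groups overlapped for puc, drpr, Socs36E and LanA.

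Neuronal markers were positive for 17 of 20 with a median of 0.03, glial markers negative for 10 of 15 with a median of -0.02, and hemocyte markers negative for 7 of 12 with a median of -0.04, each with 0 under 0.05. Of 15 heat shock genes tested 0 were under 0.05, with a median of -0.02, and of -0.30 without sham 2 and 3. Hsp83, the fly Hsp90, had 558, 548 and 499 CPM after D3Inj, against 675, 443 and 442 CPM in sham, with sham 1 the highest library. Clock genes gave 0 of 13, with tim at 46.6, 46.3 and 42.1 CPM after D3Inj, against 43.4, 40.2 and 43.0 CPM in sham (log2 fold change 0.09, SE 0.31). The receptor gene SPR had 92.8, 90.2 and 89.5 CPM after D3Inj, against 83.4, 87.3 and 95.4 CPM in sham (log2 fold change 0.03, SE 0.05). Members under 0.05, beside 4.19% of all features in either direction, were the neuropeptide gene Capa (log2 fold change -0.16, 1 of 37 neuropeptide genes), the lipase gene Lip4 (-0.53, 1 of 25 lipid genes), and the insulin-like peptide gene Ilp6 (0.27, 1 of 23 fat body genes). Of 29 detoxification genes tested GstD2 and Cyp6a8 were under 0.05, and GstD2, a glutathione transferase, had 0.0772, 0.0529 and 0.151 CPM after D3Inj, against 0.482, 0.650 and 0.283 CPM in sham (log2 fold change -2.26, SE 0.71). Neuropeptide genes had a median of -0.05, and of -0.17 without sham 2 and 3. Mitochondrially encoded genes were positive for 7 of 13 with 0 under 0.05 (median 0.03), whereas without sham 2 and 3 they were negative for 11 of 13 (median -0.20).

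The response of SP0-mated females was set against that of wildtype-mated females, which received sex peptide, of virgin females, which did not mate, and of males. Each difference of responses was tested in edgeR as a contrast over the same 24 libraries, and 0 of 14631 features passed in any of the 3 (0% each). At an unadjusted p under 0.05 there were 612, 671 and 495 features for wildtype-mated females, virgin females and males, and the lowest adjusted p in edgeR were 0.0824, 0.444 and 1.00. DESeq2 called 3, 8 and 3. CG43693 had the smallest p against wildtype-mated and virgin females. Its log2 fold change was -0.27 in SP0-mated females, 0.08 in wildtype-mated females, 0.04 in virgin females and -0.04 in males, and the differences were -0.35 (SE 0.06, adjusted p = 0.0824 from edgeR), -0.30 (SE 0.06, adjusted p = 0.444) and -0.22 (SE 0.06, adjusted p = 1.00). DESeq2 called the difference of CG43693 from wildtype-mated and from virgin females.

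Next to it against wildtype-mated females came lncRNA:CR32582 and gypsy12{}2928, both under 1 CPM. lncRNA:CR32582 had 0.154, 0.132 and 0.277 CPM after D3Inj and 0.450, 0.514 and 0.765 CPM in sham SP0-mated females, against 0.421, 0.267 and 0.407 CPM after D3Inj and 0.0913, 0.134 and 0.0799 CPM in sham wildtype-mated females. The order of the groups was opposite in the 2 kinds of female, without overlap in either. The insertion gypsy12{}2928 had log2 fold changes of 1.70 in SP0-mated and -1.95 in wildtype-mated females. For both the adjusted p of the difference was 0.0824 in edgeR. Against virgin females the other features were CG14275 and Bace. CG14275 had 0.656, 0.291 and 0.353 CPM after D3Inj, against 8.99, 1.38 and 1.33 CPM in sham SP0-mated females, and its log2 fold change of -3.20 was -1.68 without sham 1. The difference for Bace came from sham virgin females, where this protease gene had 1.45, 20.1 and 19.1 CPM. Against males they were Kebab (difference 1.48, SE 0.32), lncRNA:CR32582 (-2.38, SE 0.56) and CG43702 (1.67, SE 0.39), each with an adjusted p of 1.00 in edgeR. Kebab had 1.39, 1.29 and 2.02 CPM after D3Inj, against 1.03, 0.569 and 0.708 CPM in sham SP0-mated females.

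For other genes described above, the responses stand side by side. Sarm had log2 fold changes of 0.11 in SP0-mated females, 0.13 in wildtype-mated females, 0.19 in virgin females and 0.20 in males, and the differences of SP0-mated females from these were -0.02, -0.08 and -0.09 (SE 0.06 each). LanA, a subunit of laminin, had 0.04 in SP0-mated females, 0.23 in wildtype-mated females, 0.27 in virgin females and 0.35 in males. Its differences were -0.18 (SE 0.11), -0.23 (SE 0.11) and -0.31 (SE 0.11), and LanB2, another laminin subunit, gave -0.20 (SE 0.12), -0.33 (SE 0.12) and -0.34 (SE 0.12). None of these passed the adjusted test. Hr38 had -0.31 in SP0-mated and 0.44 in wildtype-mated females, a difference of -0.74 (SE 0.29) that did not pass the adjusted test. This pair alone does not show whether the lower level of Hr38 is particular to SP0-mated females. The gene cbt had -0.19 in SP0-mated females, 0.04 in wildtype-mated females, 0.15 in virgin females and -0.18 in males, with a difference of -0.34 (SE 0.08) from virgin females and of -0.02 (SE 0.08) from males. For aay the differences were -0.44 (SE 0.11), -0.36 (SE 0.11) and -0.37 (SE 0.11). Antimicrobial peptide genes had a median log2 fold change of 0 in wildtype-mated females, -0.79 in virgin females and -0.21 in males, beside -3.90 in SP0-mated females, where sham 2 and 3 carry it.

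**Figure D5:**
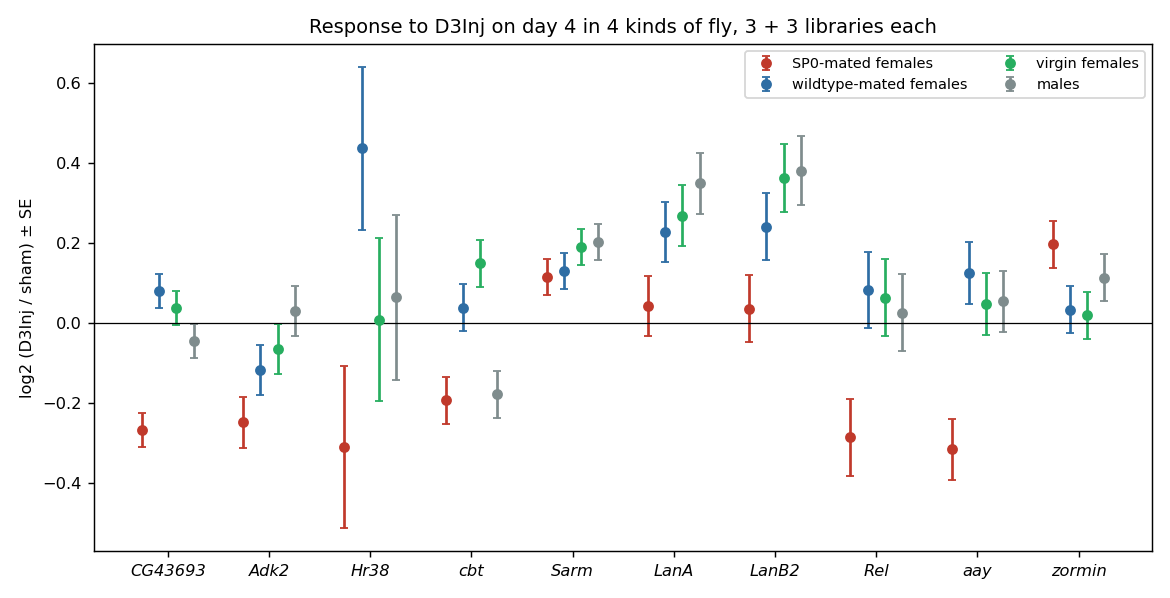
Log2 fold change of D3Inj over sham on day 4 (vertical axis, point ± SE from edgeR, 3 and 3 libraries each) for 10 named genes in SP0-mated females (red, first), wildtype-mated females (blue), virgin females (green) and males (grey). CG43693 at -0.27 in SP0-mated females lies below its values in the other 3 kinds, Sarm is positive in all 4, and LanA at 0.04 in SP0-mated females lies below 0.23 to 0.35 in the others.

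On day 45, 6 weeks after the same injury, other SP0-mated females gave separate libraries, so that values of the 2 days come from different flies. In the fit over 48 libraries 0 of 15640 features differed between the late and the acute response (0%), with 1087 at an unadjusted p under 0.05 and a lowest adjusted p of 0.211 in edgeR. DESeq2 on the 48 libraries called 1. CG43693 had 101, 104 and 110 CPM in D3Inj, against 108, 116 and 113 CPM in sham SP0-mated females of day 45, a log2 fold change of -0.10 (SE 0.05). Its groups overlapped on day 45, and the late response minus the acute was 0.17 (SE 0.07). Adk2 had 34.0, 29.6 and 30.4 CPM in D3Inj, against 29.3, 30.6 and 29.2 CPM in sham on day 45, a difference from day 4 of 0.33 (SE 0.09). The gene aay stood at 94.4, 86.0 and 74.4 CPM in D3Inj, against 122, 97.3 and 87.9 CPM in sham (log2 fold change -0.27, SE 0.10), with overlapping groups. Hr38 on day 45 had 135, 130 and 232 CPM in D3Inj, against 124, 118 and 206 CPM in sham, a spread within groups that exceeded the difference between them.

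Sarm had 466, 465 and 471 CPM in D3Inj, against 432, 442 and 477 CPM in sham on day 45 (log2 fold change 0.05, SE 0.04). The smallest p for late minus acute belonged to Kebab (difference -1.75, SE 0.36), MESK4 and lncRNA:CR45746, all with an adjusted p of 0.211 in edgeR. MESK4 and lncRNA:CR45746 were at 0 in the 3 D3Inj libraries of day 45, against 0.187, 0.479 and 0.0537 CPM and 0.347, 0.348 and 0.296 CPM in the sham libraries. Antimicrobial peptide genes were low in D3Inj and high in sham 2 and 3 on day 4. On day 45 their median log2 fold change was 0.56, and 5 of 13 were negative, beside 49.5% of all features. An unadjusted p under 0.05 on day 45 was found for 1 of the 13, beside 7.64% of all features. The photoreceptor list had a median of 0.13 on day 45, with 14 of 39 negative, beside 49.5% of all features.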

How the data were processed

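Per the labels and the methods of the study, ribosomal RNA was depleted from total RNA of pooled brains, and stranded libraries were sequenced as paired reads of 101 bases. The authors aligned them to dm6 with RNA STAR and an Ensembl annotation, and deposited raw counts per gene or transposon insertion made with featureCounts. Versions of these tools, the annotation release and whether counting used strand are not given in the sources read for this work. In 47 of 48 tables the header of the count column names another sample than the deposit record. Groups follow the header, and grouping by the record is an alternative. All columns of counts were used. Symbols and coordinates came from the BDGP6 annotation, which is the dm6 assembly and gave 17790 of 17869 genes a symbol.

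Counts of the 24 libraries of day 4 were fitted in edgeR 4.0.16 (R 4.3.3) after filterByExpr and TMM scaling, each group having 1 coefficient, and for day 45 all 48 libraries were fitted. Contrasts were tested by the quasi-likelihood F test with Benjamini-Hochberg adjustment over all features, and called at an adjusted p under 0.05. P-values count both directions. The SE was derived by dividing the absolute log2 fold change by the root of its F statistic. CPM used TMM library sizes, and log2 CPM a prior count of 2. The fit was tested on simulated data. Alternatives were other scalings, no filter, DESeq2 1.42.0, limma-voom 3.58.1, a replicate block, other sets of libraries and each library left out.

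The gene lists, the members and the tests were chosen with earlier results of these data known. Named features were every called one, and list members. Among features whose mean reached 1 log2 CPM and whose D3Inj and sham libraries did not overlap, the 12 smallest p each way and the 5 largest changes each way were also taken. The 3 smallest p of each difference of responses were added. Of the features so named, 1 is not reported here. Counts per library set the precision, and a count of 0 allows up to 3 counts, for counting error only.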

Additional observations from a re-analysis of the deposited data

How the results depend on the processing

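CG43693 kept a negative log2 fold change under every alternative except the grouping by the deposit record. By the headers, that grouping mixes sexes, treatments and days, so it does not test the effect of D3Inj. It stayed called with DESeq2 size factors in edgeR (1 feature called), with genes alone (1) and in DESeq2 on the 24 libraries (2, with alphaTry). DESeq2 on the 6 libraries called 13 (CG43693, Hr38, Muc68D, CG34220, CG34324, DptA, Prat2, Cpn, Culd, CG12116, CG1552, CG16743 and CG10433) and edgeR on the 6 libraries 4 (Hr38, Muc68D, CG34220 and CG34324). No feature was called with upper quartile factors (0), no filter (0), the replicate block (0, lowest adjusted p of 0.0695), all 48 libraries (0), limma-voom (0), without sham 2 and 3 together (0), with any 1 library left out (0 to 0) or with the closest libraries of each group summed (0), an alternative chosen after seeing the data. In SP0-mated females the deviations of libraries with the same replicate number were little correlated (0.059, -0.022 and 0.022). They ran from 0.022 to 0.21 in virgin females, from 0.021 to 0.18 in males and from -0.20 to -0.0083 in wildtype-mated females. The replicate block was shared by all groups, so it did not test pairing within a kind of fly. This block called 0 in each difference of responses. For these differences, DESeq2 called 3 features against wildtype-mated females, 8 against virgin females, 3 against males and 1 for late minus acute, and the grouping by the record 1, 0, 1 and 4, beside 1 for D3Inj against sham, which was not CG43693. Against virgin females the fit over 48 libraries called 4. Without sham 2 and 3, sham 1 was the only sham library left, and CG14275 was highest there. Its log2 fold change of D3Inj against sham was then -4.42, beside -3.20 in the main fit and -1.68 without sham 1. The cause of the differences between settings was not tested.

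Of 1432 log2 fold changes of 76 named features under alternatives, 1382 kept their direction, 50 reversed and 12 became called. Without sham 2 and 3 they reversed to AttC at 0.85, DptB at 2.64, Dro at 1.63, Mtk at 0.089, CecA1 at 2.67, BomS1 at 0.69, TotM at 0.23, ninaE at 0.27, Rh3 at 0.074, Rh6 at 0.079, trp at 0.23, trpl at 0.0019, chp at 0.15, Gnmt at 1.58, Pfas at 0.0029, Nmdmc at 0.038, Paics at 0.029, Gart at 0.12 and CG11089 at 0.054. With groups by the deposit record, which puts other flies in the groups, they reversed to CG43693 at 0.16, Adk2 at 0.019, CG1640 at 0.015, CG10874 at 0.16, ND-ASHI at 0.21, lncRNA:CR44188 at 0.42, CG42562 at -0.088, CG34348 at -0.15, lncRNA:CR45224 at -0.13, zormin at -0.083, Smu1 at -0.0035, lncRNA:CR44395 at -0.059, Nup50 at -0.15, mus304 at -0.080, Gpo2 at -0.17, INE-1{}2615 at -0.15, Muc68D at -6.91, CG34324 at -5.06, CG34220 at -3.53, Rh6 at 0.35, chp at 0.16, Cpn at 0.91, Sarm at -0.22, bt at -1.21, Mhc at -0.55, Capa at 0.0079, Kebab at -0.50, CG14275 at 2.41, lncRNA:CR32582 at 0.36, gypsy12{}2928 at -0.070 and CG43702 at -0.44. The reversals by the record come from groups that mix sexes, treatments and days by the headers, and do not test the effect of D3Inj. At 3 libraries a group, differences under about the SE shown cannot be told from the spread. Differences above 1 SE need not be resolved either. Hr38, at -0.31 with an SE of 0.20, had an unadjusted p of 0.14 in edgeR.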
